A study of Mus musculus with 8 samples.

Results

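Vomeronasal type 1 receptor (Vmn1r) genes were taken as all protein-coding autosomal mouse genes whose symbol is Vmn1r followed by digits. There were 230 such genes, and 228 of them had a replication timing score at the gene midpoint, out of 20560 scored protein-coding autosomal genes. They were chosen by name and not by any measured value. Replication timing had been profiled by Repli-seq in mouse embryonic stem cells (mESC), in which newly made DNA is labelled with BrdU for 2 h and recovered from 40000 cells each sorted into early and late S phase. The groups were control cells and cells given dTAG for 2 days. dTAG is a degrader compound that sends a protein carrying the matching tag to the proteasome, here YY1, a DNA-binding regulator found at promoters and enhancers. The labels give neither the genotype, strain and sex of the line nor the treatment of the control cells, and refer to an earlier publication for both culture and treatment. The 8 samples form 4 profiles, control 1, control 2, dTAG 1 and dTAG 2, each made from an early and a late fraction, so each group has n = 2.

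V1R receptors are G protein-coupled receptors of the vomeronasal organ, the sensory tissue that detects pheromones and other social odours. Each sensory neuron of the apical layer expresses few members of the family, usually a single one, and signals through the G protein subunit Gnai2 and the channel Trpc2. The genes lie in tandem clusters that have grown by repeated duplication, they are silent in most other tissues, and such silent, AT-rich arrays are known in many cell types for late replication. No RNA was measured here, so nothing below says whether any receptor was expressed.

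The members fell into 14 clusters, taken as runs of genes less than 1 Mb apart, and 13 of them had scores. Chromosome 7 held 126 members, chromosome 6 held 51, chromosome 13 held 35, chromosome 17 held 14 and chromosome 4 held 2, while chromosomes 1 and 18 held 1 each. The largest cluster, at chr7:20101158-24055691, held 86 genes. Positions are those of GRCm38.p6, the assembly behind mm10. The unscored members, Vmn1r186 and Vmn1r187, are placed between 94186 and 172761 on chromosome 7, before the first scored position at 3000000. Another 142 autosomal Vmn1r symbols are pseudogenes or non-coding and were not members.

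Sequences from 250 bases before to 50 after the annotated start, called promoters below, were matched in RefSeq (GRCm38.p6) for 205 of the 230 members. In every sequence printed here the last 50 bases open with ATG, a start codon, and the median member is 924 bases long. The annotated start of such members is therefore likely that of the coding sequence, and these windows need not hold the true promoter. The first 4 sequences belong to genes at the ends of the timing results: the earliest member, the latest member, the member with the highest dTAG minus control difference and the member with the widest gap between the groups. Vmn1r1 lies at chr1:182158049-182158348 on the minus strand, Vmn1r25 at chr6:57979253-57979552 on the minus strand, Vmn1r207 at chr13:22726573-22726872 on the minus strand and Vmn1r47 at chr6:90021638-90021937 on the plus strand.
Vmn1r1: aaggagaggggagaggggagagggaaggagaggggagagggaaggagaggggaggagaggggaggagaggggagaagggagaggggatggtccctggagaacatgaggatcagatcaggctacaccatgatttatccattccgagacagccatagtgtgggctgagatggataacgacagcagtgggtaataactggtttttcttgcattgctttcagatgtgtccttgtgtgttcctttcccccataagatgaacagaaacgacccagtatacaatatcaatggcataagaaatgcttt
Vmn1r25: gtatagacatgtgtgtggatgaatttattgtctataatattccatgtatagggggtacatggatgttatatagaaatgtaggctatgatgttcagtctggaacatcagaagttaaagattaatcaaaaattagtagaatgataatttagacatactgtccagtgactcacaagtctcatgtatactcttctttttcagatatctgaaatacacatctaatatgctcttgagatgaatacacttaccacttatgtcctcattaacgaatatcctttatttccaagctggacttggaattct
Vmn1r207: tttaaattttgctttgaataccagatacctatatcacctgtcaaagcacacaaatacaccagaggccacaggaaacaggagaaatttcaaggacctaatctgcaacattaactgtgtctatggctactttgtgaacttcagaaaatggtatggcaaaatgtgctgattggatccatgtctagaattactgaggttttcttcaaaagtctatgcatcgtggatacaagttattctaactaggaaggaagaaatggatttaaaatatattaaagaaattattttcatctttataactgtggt
Vmn1r47: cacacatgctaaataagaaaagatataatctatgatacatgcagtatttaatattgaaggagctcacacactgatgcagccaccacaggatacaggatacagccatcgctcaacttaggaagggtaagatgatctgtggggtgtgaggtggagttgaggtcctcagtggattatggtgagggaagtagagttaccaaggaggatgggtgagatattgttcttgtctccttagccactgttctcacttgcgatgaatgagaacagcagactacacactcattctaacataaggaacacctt

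The other two are shown because they are nearly the same sequence at very different timing. Vmn1r91 lies at chr7:20100908-20101207 and Vmn1r152 at chr7:22522717-22523016, both on the plus strand of the same cluster and 2422 kb apart. Vmn1r91 is the first member of that cluster, at its edge, and Vmn1r152 lies in its interior. Capitals mark the 15 positions at which they differ.
Vmn1r91: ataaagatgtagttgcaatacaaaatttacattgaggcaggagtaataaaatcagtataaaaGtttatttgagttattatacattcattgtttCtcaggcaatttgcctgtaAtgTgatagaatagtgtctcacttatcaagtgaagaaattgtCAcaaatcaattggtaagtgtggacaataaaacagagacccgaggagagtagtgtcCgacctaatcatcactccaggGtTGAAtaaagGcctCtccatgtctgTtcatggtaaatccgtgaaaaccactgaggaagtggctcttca
Vmn1r152: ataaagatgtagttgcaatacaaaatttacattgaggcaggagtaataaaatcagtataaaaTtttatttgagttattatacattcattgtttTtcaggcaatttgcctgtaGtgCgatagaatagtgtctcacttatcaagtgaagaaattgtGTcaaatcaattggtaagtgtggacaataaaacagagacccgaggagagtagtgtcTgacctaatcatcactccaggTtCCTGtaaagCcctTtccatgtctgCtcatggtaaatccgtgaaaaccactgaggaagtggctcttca

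The windows taken as Vmn1r promoters were AT-rich. Their median GC content was 36.0%, against 57.0% for 16252 other autosomal protein-coding promoters and 35.0% for 934 olfactory receptor promoters. The median number of CpG dinucleotides was 1 in Vmn1r promoters and 14 in the other promoters, and 21.5% of Vmn1r promoters had none, against 4.74% of the others. Olfactory receptor promoters also had a median of 1, and 33.7% of them had none. Within the family, the 49 promoters of members with a mean score above 0 had a median GC content of 36.3%, and the 156 below 0 a median of 35.8%. No CpG was present in 32.7% of the 49 and in 17.9% of the 156. The letters AANATGGC, a core of the YY1 motif searched on both strands, occurred in 13 of 205 Vmn1r promoters (6.34%) and in 6.69% of the other promoters. None of the 6 printed promoters held them, which says only that these letters are not in these windows. Windows of other genes may be set from a transcript start rather than a coding start, which was not checked. The comparisons with other genes need not set like regions side by side, so nothing about true promoters is read from them.

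Many members shared almost the same sequence around the annotated start. Of the 205, 54 were identical to that of at least 1 other member and 71 matched another at 95% or more without gaps, 67 of them in the 86-gene cluster, where 83 members had a promoter sequence. None of the 569 pairs at 90% or more spanned different clusters. Genes with near-identical copies can share reads, which limits how well a score belongs to a single member. Among the 343 pairs at 95% or more, the median gap in score was 0.57 units. The largest was 3.47 units, between Vmn1r91 at a mean score of 0.62 and Vmn1r152 at -2.85, the printed pair, whose promoters are 95% identical.

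Most Vmn1r genes replicated late in these stem cells. The score is high for early replication: 98.7% of 76 ribosomal protein genes scored above 0, and none of 12 very long genes did. Across the 228 members the median score was -1.41 in control 1, -1.24 in control 2, -1.29 in dTAG 1 and -1.16 in dTAG 2. Over all scored protein-coding genes it was 3.43, 3.16, 3.42 and 3.07 in the same order. By the mean of the 4 profiles 62 members (27.2%) lay above 0, against 80.8% of all protein-coding genes, and 203 members (89.0%) fell in the latest quartile of those genes. A further 22 fell in the next quartile, 3 in the one after and 0 in the earliest. The sign of the score was the same in all 4 profiles for most members, with 41 above 0 throughout, 153 below 0 throughout and 34 mixed.

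The members did not share a single timing. Mean scores ran from -4.23 for Vmn1r25 on chromosome 6 to 3.65 for Vmn1r1 on chromosome 1, and differences between clusters made up 28.0% of the variance of the level, so most of it lay within clusters. Between neighbours in a cluster, a median of 33.8 kb apart, the median step was 0.23 units, and 13 of 215 steps exceeded 1 unit. Smoothing of the deposited profiles makes close neighbours share reads, so such steps are not independent values.

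**Figure D1:**
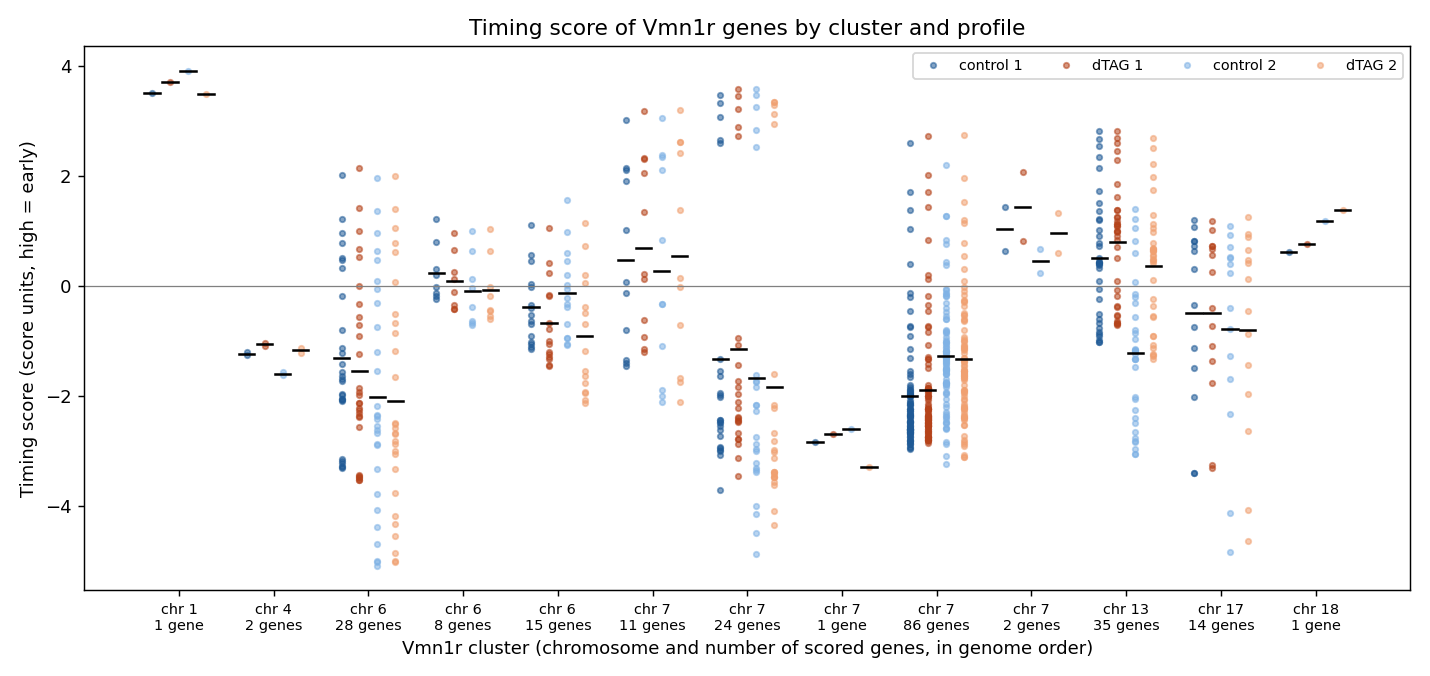
Timing score in score units (vertical axis, high for early) of each scored Vmn1r gene in the 4 profiles, by cluster along the horizontal axis, with black bars for the cluster mean in each profile. The chromosome 1 gene sits between 3.48 and 3.91 in every profile, and the 35 chromosome 13 genes sit lowest in control 2.

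The 86-gene cluster on chromosome 7 was a late block between early flanks. Its mean over members was -2.01 in control 1, -1.27 in control 2, -1.89 in dTAG 1 and -1.32 in dTAG 2, while the positions 500 kb outside its first and last member had mean scores of 4.07 and 4.02. Of its members 80 had a mean score below 0 and 6 above. Only 4.93% of the 5 kb positions from its first to its last member scored above 0, and the most interior member lay 1880 kb from the nearest position that did. Vmn1r152 was the latest member, at -2.92 and -2.59 in the controls and -2.79 and -3.11 after dTAG. Vmn1r183, at the distal edge, was the earliest, at 2.59 and 2.20 in the controls and 2.72 and 2.74 after dTAG. The replicate numbers differed here more than the groups: replicate 2 profiles were higher than replicate 1 profiles by 0.65 units. The median replicate 2 minus replicate 1 value was -0.47 over all protein-coding genes, which are mostly early and so an unlike set. Over all Vmn1r members it was -0.15, over Vmn2r genes 0.08 and over olfactory receptor genes -0.49.

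The 24-gene cluster at chr7:10273828-13220289 held members at both ends of the scale. The 19 genes from Vmn1r66 to Vmn1r84 had mean scores of -2.46 and -2.94 in the controls and -2.27 and -3.17 after dTAG. The 5 genes from Vmn1r85 to Vmn1r89, at chr7:13084289-13220289, had mean scores of 3.02 and 3.13 in the controls and 3.17 and 3.20 after dTAG. The widest step between neighbours of any cluster, 5.12 units over 722.5 kb, lay between Vmn1r84 and Vmn1r85. These groups of genes were picked out after their values were seen. Vmn1r85 and Vmn1r89 are receptors known in mice to respond to sulfated steroids. Vmn1r85 scored 3.46 and 3.58 in the controls and 3.57 and 3.28 after dTAG, and Vmn1r89 scored 2.59 and 2.52 against 2.73 and 2.94. Vmn1r69, a receptor of female cues, lay in the late stretch at -3.07 and -3.01 in the controls and -2.78 and -3.37 after dTAG, so receptors with known cues stood in both. Vmn1r76 was the latest member of the cluster, with a mean score of -3.75.

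**Figure D2:**
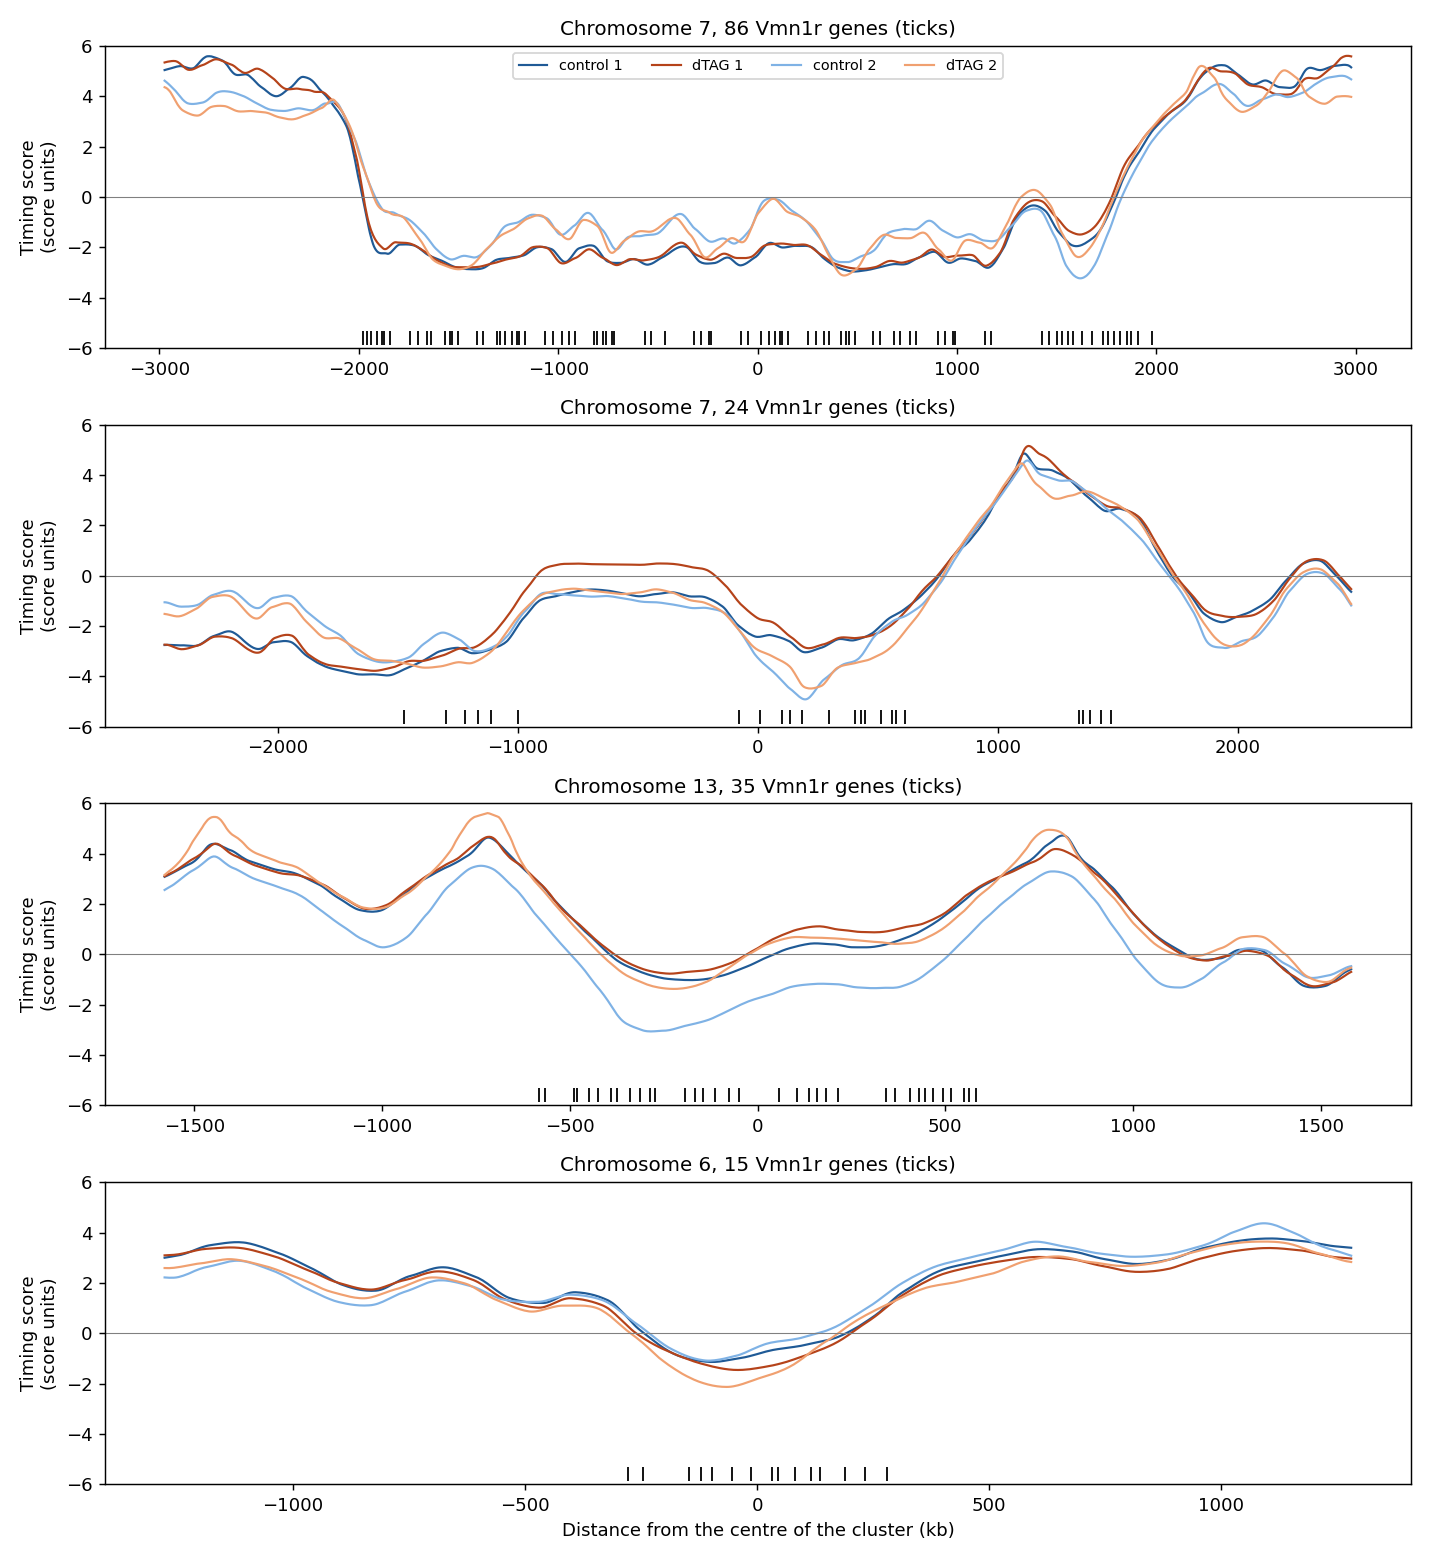
Timing score in score units (vertical axes) along 4 clusters and their surroundings in the 4 profiles, against distance from the centre of the cluster in kb, with ticks at the Vmn1r genes. The 86 genes on chromosome 7 lie in a late trough, the last 5 genes of the 24-gene cluster lie on an early slope, and the control 2 line runs below the others across the chromosome 13 cluster.

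Chromosome 6 carried 3 clusters. The 28-gene cluster at chr6:56923914-58472878 ran from Vmn1r25 with -3.31 and -5.08 in the controls and -3.53 and -4.99 after dTAG to Vmn1r4 with 2.02 and 1.95 against 2.13 and 2.00. Its members averaged -1.31 and -2.02 in the controls and -1.54 and -2.10 after dTAG, and 6 of the 28 had a mean score above 0. The 8-gene cluster at chr6:66552183-66805332 stood near the middle of the scale, with averages of 0.24 and -0.09 in the controls and 0.09 and -0.07 after dTAG and members from -0.48 for Vmn1r33 to 1.05 for Vmn1r39. The 15-gene cluster at chr6:89711261-90270053, known for receptors of mouse pheromones, ran from -1.41 for Vmn1r44 to 1.21 for Vmn1r54.

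The remaining clusters were small or mixed. The 14 genes on chromosome 17 had a mean score of -0.50 and -0.79 in the controls and -0.48 and -0.81 after dTAG, with 7 above 0, from Vmn1r225 at -4.03 to Vmn1r237 at 1.10. The 11 genes at chr7:5146490-6011010 ran from -1.69 for Vmn1r61 to 3.11 for Vmn1r55. The 35 genes on chromosome 13 ran from -1.48 for Vmn1r200 to 2.43 for Vmn1r188, with 21 above 0. Of the genes that stand alone, Vmn1r1 was early at 3.50 and 3.91 in the controls and 3.70 and 3.48 after dTAG, Vmn1r90 on chromosome 7 was late at -2.84 and -2.59 against -2.69 and -3.30, and Vmn1r238 on chromosome 18 scored 0.62 and 1.18 against 0.76 and 1.38. Order among the single genes was kept in every profile.

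The Vmn2r genes, the receptors of the basal vomeronasal layer, and the olfactory receptors of the main nasal epithelium also had medians below 0 in every profile. The median score of Vmn1r genes was higher than that of 121 Vmn2r genes by 0.50 and 0.21 in the controls and by 0.28 and 0.25 after dTAG. The difference held its sign in 4 of 4 profiles, with a 2-sided exact sign-flip permutation p of 0.13, the smallest that 4 profiles allow. By the share with a mean score above 0 the order was reversed, with 27.2% of Vmn1r and 31.4% of Vmn2r genes. Against 1099 olfactory receptor genes the differences in median were -0.27 and 0.37 in the controls and -0.34 and -0.23 after dTAG, with no shared sign (exact permutation p = 0.63). Against 300 other protein-coding genes in or within 500 kb of a Vmn1r cluster, the differences in median were -4.58 and -3.78 in the controls and -4.43 and -4.19 after dTAG, negative in 4 of 4 profiles (exact permutation p = 0.13). The 68 other genes that lie between members of a cluster were intermediate, with 45.6% above 0. Of the smaller families, 35 Tas2r bitter taste receptors had a median control score of -2.72, 7 Fpr receptors 0.19 and 15 Taar receptors 1.46.

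**Figure D3:**
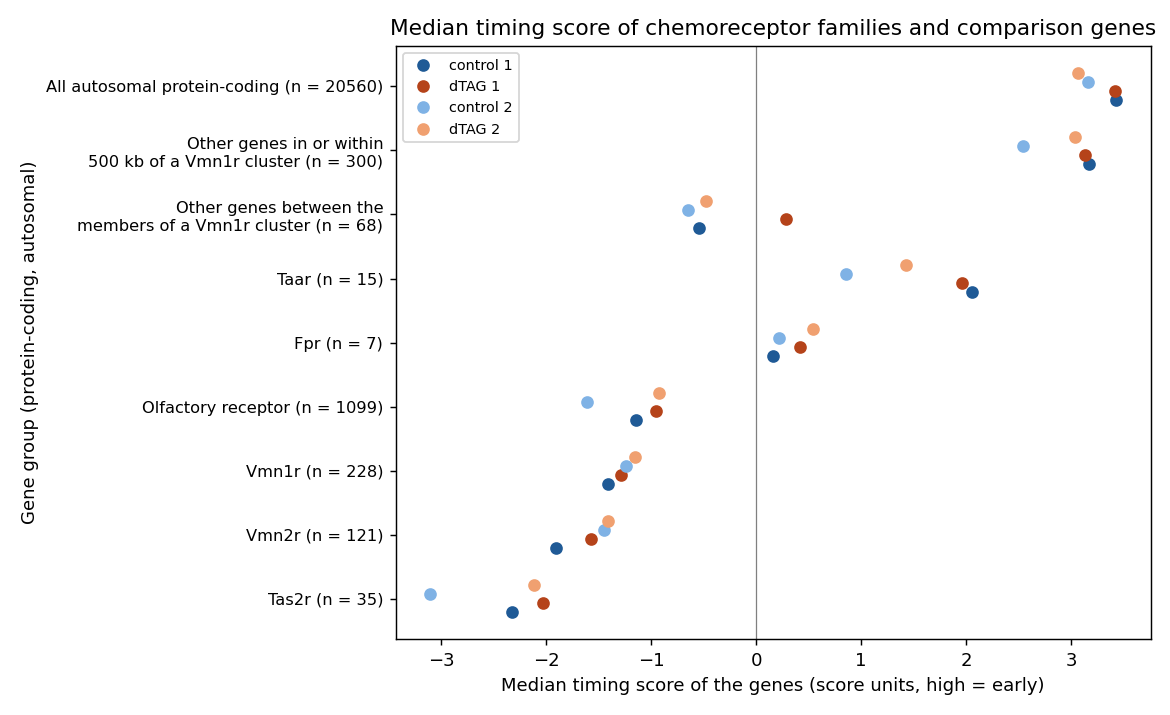
Median timing score in score units (horizontal axis, high for early) of chemoreceptor families and comparison genes in the 4 profiles, with the number of genes beside each name. Vmn1r medians lie between -1.41 and -1.16, and those of other genes in or within 500 kb of a Vmn1r cluster between 2.54 and 3.17.

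Genes of chemosensory signalling and of the neuron lineages mostly had scores above 0, as protein-coding genes did in general (80.8%). Of 12 signalling and neuron genes of the vomeronasal and main olfactory systems 11 had a mean score above 0. Trpc2, the transduction channel, averaged 4.46, Gnai2 4.02, and Omp, a marker of mature sensory neurons, 3.22. Gng8, a G protein gamma subunit of these neurons, was the earliest at 4.93, and Cnga2, the olfactory cyclic nucleotide channel on the X chromosome, the latest at -3.09. Of 10 regulators of receptor choice or of the neuron lineage 9 lay above 0, and the histone demethylase Kdm1a was the earliest at 5.08. limma called 0 of the 12 and 0 of the 10 genes between control and dTAG.

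Between control and dTAG, no Vmn1r gene passed the test. limma, fitted on the 49214 genes with a score and adjusted by Benjamini-Hochberg, called 0 of 228 members and 0.0% of all genes at an adjusted p of 0.05, while 2 members and 411 genes had an unadjusted p under 0.05. With the replicate number as a block it also called 0 members and 0 genes, and 42 members and 4594 genes had an unadjusted p under 0.05. With the block and a trended, robust variance together it called 3 members, Vmn1r209, Vmn1r210 and Vmn1r211, with limma adjusted p of 0.0496, 0.0479 and 0.0481, among 402 genes called (0.817%), 72 earlier and 330 later. All 3 lie in the chromosome 13 cluster, where control 2 was lower than the other profiles. With 2 profiles against 2, an exact permutation test cannot go below 0.33, and since the labels do not tell whether replicates were separate cultures, the p-values cover the spread among these 4 profiles and no more.

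The members showed no common shift. The median dTAG minus control difference of the members was -0.004 score units, 0.11 within replicate 1 and -0.01 within replicate 2, beside -0.02, 0.01 and -0.07 over all protein-coding genes. The difference was above 0 for 110 of 228 members (48.2%), against 47.3% of all protein-coding genes. Within replicate 1 the share was 66.7% against 51.7%, and within replicate 2 it was 48.7% against 43.2%. The spread was wider than in the genome at large, with an SD of 0.47 against 0.32 units, and 67.3% of the variance of the difference lay between clusters. Both dTAG profiles lay at least 0.5 units above both controls for 0 members, against 0.316% of all protein-coding genes, and at least 0.5 units below both for 3 members (1.32%), against 0.73%. With no minimum gap, both dTAG profiles lay above both controls for 37 members (16.2%), against 10.0%, and below both for 22 (9.65%), against 8.02%. Of the 37, 12 lay in the 86-gene cluster and 10 in the chromosome 13 cluster, and of the 22, 12 lay in 1 cluster of chromosome 6. Neighbours share reads, so these counts are not independent events and nothing is read from the excess over the background.

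**Figure D4:**
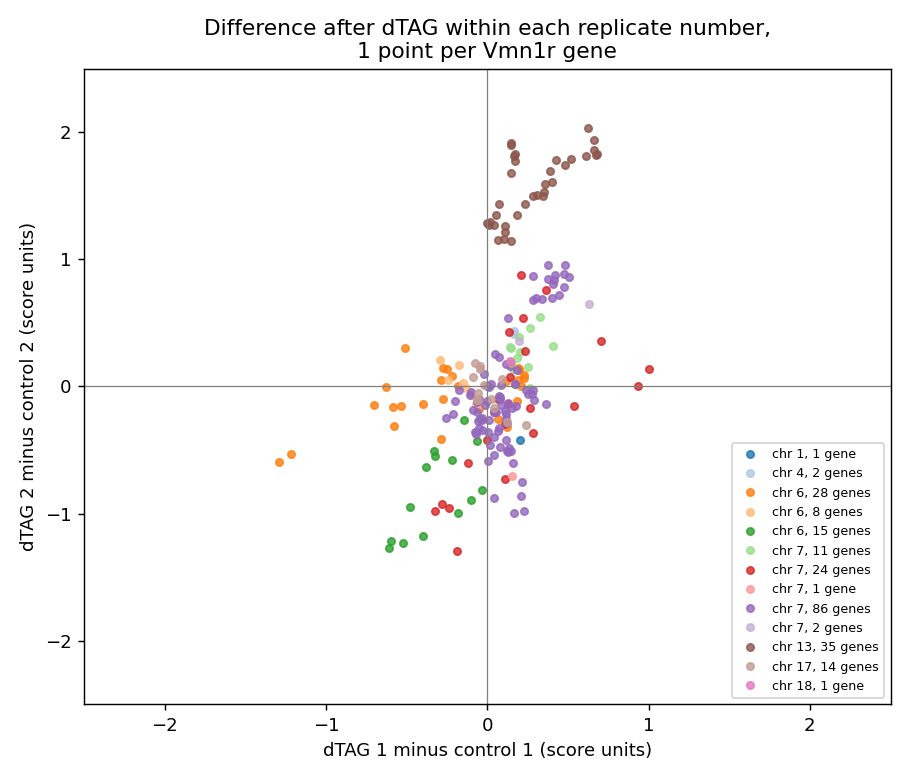
Difference between dTAG and control in score units within replicate 1 (horizontal axis) and replicate 2 (vertical axis), 1 point per scored Vmn1r gene, coloured by cluster. The chromosome 13 genes reach 2.03 within replicate 2 but stay under 0.7 within replicate 1, and the 15-gene cluster of chromosome 6 lies below 0 on both axes.

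The 15-gene cluster on chromosome 6 was lower after dTAG in both replicate numbers. Its mean was -0.38 and -0.13 in the controls and -0.67 and -0.91 after dTAG, that is -0.25 ± 0.18 against -0.79 ± 0.17 (SD, n = 2 each), a difference of -0.54, with -0.30 within replicate 1 and -0.79 within replicate 2. The groups did not overlap, and the exact permutation p was 0.33, the smallest possible. All 15 members had a lower score in both replicate numbers, and for 12 both dTAG profiles lay below both controls. The 3 members with a gap of at least 0.5 were Vmn1r46, Vmn1r47 and Vmn1r48. Vmn1r47 scored -0.68 and -0.38 in the controls and -1.29 and -1.64 after dTAG, a difference of -0.94 ± 0.34 (SE), with an unadjusted limma p of 0.041 and an adjusted p of 1. Vmn1r48 differed by -0.91 and Vmn1r46 by -0.88. Vmn1r49, a receptor reported to respond to a ketone of mouse urine, scored -0.53 and -0.23 against -1.01 and -1.18. At the distal edge the groups overlapped, as for Vmn1r54 with 1.10 and 1.56 against 1.04 and 1.14.

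The chromosome 13 cluster, at chr13:22087878-23250323, had the highest difference of any cluster, and it rested mostly on control 2. Its mean was 0.51 in control 1, -1.22 in control 2, 0.79 in dTAG 1 and 0.36 in dTAG 2, so that only control 2 was late and the groups overlapped. The controls averaged -0.35 ± 1.22 and the dTAG profiles 0.57 ± 0.31 (SD, n = 2 each). The difference was 0.93 units, made up of 0.28 within replicate 1 and 1.57 within replicate 2. Without control 2 it was 0.06, while leaving out that profile gave a median difference of -0.20 over all genes. Of the 35 members, 34 were higher after dTAG in both replicate numbers. Control 2 was the lowest profile at 35 of 35 members, by 1.15 to 1.92 units below the next lowest. For 10 members both dTAG profiles still lay above both controls.

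The 5 highest differences among all members lay in this cluster. Vmn1r207 scored 0.08 in control 1, -1.47 in control 2, 0.71 in dTAG 1 and 0.56 in dTAG 2, a difference of 1.33 ± 0.58 (SE). Vmn1r208, Vmn1r209, Vmn1r210 and Vmn1r211, its neighbours, differed by 1.30, 1.26, 1.26 and 1.25, each with control 2 alone below 0. The shift in control 2 was not limited to the receptors. The 23 histone genes beside the cluster on the proximal side, the nearest 44.5 kb from its edge, had mean scores of 3.01 in control 1, 1.62 in control 2, 3.08 in dTAG 1 and 3.11 in dTAG 2. The 31 on the distal side, the nearest 281 kb away, had 2.06, 0.72, 1.98 and 1.83 in the same order. Over all protein-coding genes of chromosome 13 the median difference was 0.04 within replicate 1 and 0.16 within replicate 2.

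Of the other clusters, 2 had groups that did not overlap, so 3 of 13 clusters did so in all. Among single protein-coding genes, both dTAG profiles lay above both controls for 10.0% and below both for 8.02%. No such share was computed for runs of other genes, and full separation of 2 profiles from 2 has an exact permutation p of 0.33. Nothing is therefore read from the count of clusters. The 11 genes at chr7:5146490-6011010 averaged 0.46 and 0.27 in the controls and 0.69 and 0.55 after dTAG, a difference of 0.26 with 0.23 within replicate 1 and 0.28 within replicate 2 (exact permutation p = 0.33). All 11 were higher after dTAG, 10 of them in both replicate numbers. The pair on chromosome 4, Vmn1r2 and Vmn1r3, averaged -1.23 and -1.59 in the controls and -1.06 and -1.17 after dTAG, a difference of 0.29 (exact permutation p = 0.33). The pair at chr7:26266831-26612078 was higher within both replicate numbers, by 0.41 and 0.51, with overlapping groups: Vmn1r185, a receptor of female cues, scored 1.43 and 0.67 in the controls and 2.06 and 1.33 after dTAG, and Vmn1r184 scored 0.63 and 0.24 against 0.82 and 0.60.

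In the larger clusters single stretches differed in both directions. The 86-gene cluster differed by 0.04 units, 0.12 within replicate 1 and -0.05 within replicate 2. At its distal end, 12 members between Vmn1r167 and Vmn1r183 (chr7:23504642-24055691) had both dTAG profiles above both controls. They averaged 0.08 and -0.46 in the controls and 0.44 and 0.30 after dTAG, and were chosen on these values, so this is a description. In the opposite direction, 3 of the 86 members, Vmn1r103, Vmn1r104 and Vmn1r245, had both dTAG profiles below both controls. They averaged -2.67 and -2.44 in the controls and -2.73 and -2.79 after dTAG. Over all protein-coding genes 10.0% lay above and 8.02% below in this way, and nothing is read from the 12 or the 3. These 3, and the runs of other clusters named below, were also picked after their values were seen. The 24-gene cluster differed by 0.01 units. There Vmn1r71 and Vmn1r72, which border a stretch without members, averaged -1.98 and -1.95 in the controls, -1.01 in dTAG 1 and -1.88 in dTAG 2, so that dTAG 1 alone was higher. Vmn1r81, Vmn1r82 and Vmn1r83 differed by -0.60, -0.65 and -0.60 and were lower after dTAG in both replicate numbers. The 28-gene cluster on chromosome 6 differed by -0.15 units. Its last members, Vmn1r30 and Vmn1r31, were among the 5 lowest differences of the family: Vmn1r31 scored 0.97 and 0.09 in the controls and -0.33 and -0.51 after dTAG, a difference of -0.94 ± 0.42 (SE), and Vmn1r30 differed by -0.87. The 8 genes at chr6:66552183-66805332 differed by -0.07 units, and the 14 on chromosome 17 by -0.00.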

How the data were processed

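Repli-seq of early and late S-phase fractions was summarised by the authors as a signed timing score at 526745 positions 5 kb apart, 514245 of them with values in all 4 profiles. Per the file headers and name, the deposited score was Loess smoothed and quantile normalized. Its formula, log base and direction are unstated, and no counts were used, so depth and counting error are unknown. The submitters' processing notes name Bowtie2, SAMtools and bedtools, with no version, and the build mm10. Sorted values of control 1 and dTAG 1 were equal to within 5.16e-05, and replicate 2 profiles had the mirrored distribution, with means of 0.20 and -0.20 for replicates 1 and 2. Profiles without a number in the labels were called replicate 1. For dTAG replicate 1 the titles and the labelled fractions disagree on which sample is early, and ribosomal protein genes were read as early in all profiles.

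Each gene took the score at the 5 kb position of its midpoint, with positions from RefSeq genes (GRCm38.p6). The test of dTAG against control was limma 3.58.1 under R 4.3.3 (lmFit, eBayes, group only, 2-sided, Benjamini-Hochberg over 49214 genes, threshold 0.05). Its code was checked on simulated data with independent noise and planted shifts larger than the difference of any member. That check does not show whether shifts of the sizes reported here could be called. Cluster means and family medians were compared by exact permutation with Python 3.11.15. Promoters were compared position by position without gaps. Alternatives were one distribution for all profiles, centring on chromosome means, windows of 50 kb, pseudogenes, other gaps, another variance model, a replicate block and leaving out each profile. Named were the highest and lowest member of each cluster, single genes, the 5 highest and 5 lowest differences, receptors with known cues and unscored members. The members and lists were chosen with earlier results of these data known. The lowest score among the regulators is not reported here.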

Additional observations from a re-analysis of the deposited data

How the results depend on the processing

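The profiles of a replicate number shared deviations (r = 0.63 between the deviations of the same-numbered profiles), but with 2 pairs and no statement in the labels the numbers were not taken to pair the samples. With the replicate block, limma called 0 members, and with the replicate block, trend and robust variance 3, among 402 of 49214 genes. Leaving out 1 profile offsets all genes, by a median of -0.24 (dTAG 1 left out) to 0.20 (control 1 or dTAG 2 left out). It moved the median control score between -1.41 and -1.24 and the median difference between 0.0188 and 0.179. The clusters without overlap then numbered 7 to 9, with 0 to 55 members at least 0.5 earlier and 3 to 17 later. Both criteria are easier to meet with 2 profiles against 1. No share over all genes was computed for these settings, so nothing is read from the higher counts. Cluster differences then ranged from -0.51 to 0.21 (28 genes, chromosome 6), -0.234 to 0.0917 (8 genes, chromosome 6), -0.67 to -0.41 (15 genes, chromosome 6), -0.34 to 0.36 (24 genes, chromosome 7), -0.33 to 0.41 (86 genes, chromosome 7), -0.17 to 0.16 (chromosome 17) and 0.06 to 1.79 (chromosome 13). Members at least 0.5 earlier numbered 7 with one distribution, 7 with chromosome centring, 1 with pseudogenes, 10 at a gap of 0.25 and 37 with no minimum. Those later numbered 5 with centring, 5 with pseudogenes, 9 at a gap of 0.25 and 22 with no minimum. Clusters without overlap numbered 5 with centring, 4 of 15 with clusters split at 500 kb and 3 of 12 at 2 Mb. With all profiles kept, cluster differences near 0 turned sign for the 24-gene cluster with one distribution (-0.0106) and chromosome 17 over all positions (0.00914), as did the median difference with centring (0.012) and with pseudogenes (0.0465). The cause was not tested. With 2 profiles a group and no read counts, small shifts at single genes cannot be resolved.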
